A study of Mus musculus with 24 samples.

Results

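The 8 genes described here, Ppara, Pdk4, Plin2, Acot1, Angptl4, Cpt1a, Ehhadh and Acadm, are the nuclear receptor PPAR alpha and genes of its fatty acid and fasting programme. They were taken by symbol from the 16921 genes of the deposited tables, and all 8 had a row and passed the filter on low counts. The study measured RNA of kidney cortex from male C57BL6/J mice of 22 months, with 6 libraries in each of 4 groups. FGF21 KO mice on low protein (KO_LP) ate 5% casein and FGF21 KO mice on normal protein (KO_NP) ate 20% casein, and wild type mice ate the same 2 diets (WT_LP and WT_NP). Diets ran from 3 months of age and were eaten ad libitum in every group. Whether food was withdrawn before the tissue was collected is not known here. The labels do not say how the Fgf21 allele was made, nor in which cells it is lost. Fgf21 itself was not analysed here. FGF21 is a hormone that rises when dietary protein is low. The study asks what low protein does to the aged kidney and what FGF21 contributes.

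PPAR alpha is a nuclear receptor that fatty acids activate. Bound to DNA with its partner RXR, it raises the transcription of genes for fatty acid uptake, storage and oxidation, and its targets are known to rise in liver and kidney when animals fast. Proximal tubule cells burn fatty acids as their main fuel, so the programme is normally active in kidney cortex.

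QuantSeq libraries tag the 3' end of a transcript, and levels are given in CPM, the count of a gene scaled by its library's total and TMM factor to a common size. Library totals were 8.47 to 14.1 M counts in KO_LP, 10.7 to 16.3 M in KO_NP, 15.2 to 18.4 M in WT_LP and 10.6 to 21.1 M in WT_NP. Each library has its own sample code in the labels, which do not state outright that each is a separate mouse, so p-values measure the spread between these samples. Replicate numbers are only names. Of 12 proximal tubule S1 and S2 markers, all had a row and a tested count. One library, KO_LP 6, stood apart for the genes described here. Across all 15165 tested genes, KO_LP 6 held the highest CPM of the 24 libraries for 2103 genes (13.9%), and was at least 2-fold above the next library for 96 genes (0.633%). KO_LP 4 came next, with the highest CPM for 1842 genes (12.1%) and 11 genes at least 2-fold above the next library, and then WT_NP 1, with 982 genes (6.48%) and 6. For the 8 genes it was the highest library in 7. Results that rest on it are given with and without it. Mitochondrial genes took 18.5 to 26.3% of the counts in KO_LP and 26.4 to 30.5% in KO_NP, so that these groups did not overlap, against 24.2 to 27.2% in WT_LP and 21.8 to 27.2% in WT_NP.

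Because PPAR alpha acts through DNA, the promoters of the 3 genes that were called and had a sequence are shown: Plin2, Pdk4 and Acot1. The sequences are RefSeq's for GRCm38.p6, 250 bases before to 50 bases after the gene's start, on the gene's strand. They cover chr4:86670010-86670309 (minus strand) for Plin2, chr6:5496229-5496528 (minus strand) for Pdk4 and chr12:84009252-84009551 (plus strand) for Acot1. Capitals mark matches to the motifs named after the sequences.
Plin2: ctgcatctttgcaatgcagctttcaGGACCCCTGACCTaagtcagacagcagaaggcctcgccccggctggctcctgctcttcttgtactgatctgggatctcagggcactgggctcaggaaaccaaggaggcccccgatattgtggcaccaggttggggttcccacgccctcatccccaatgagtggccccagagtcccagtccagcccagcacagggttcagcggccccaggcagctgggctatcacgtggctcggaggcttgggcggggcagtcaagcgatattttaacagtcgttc
Pdk4: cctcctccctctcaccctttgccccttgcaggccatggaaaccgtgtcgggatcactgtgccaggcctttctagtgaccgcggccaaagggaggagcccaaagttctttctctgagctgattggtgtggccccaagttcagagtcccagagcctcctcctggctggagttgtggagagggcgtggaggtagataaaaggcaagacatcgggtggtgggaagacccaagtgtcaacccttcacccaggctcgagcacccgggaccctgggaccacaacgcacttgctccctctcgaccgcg
Acot1: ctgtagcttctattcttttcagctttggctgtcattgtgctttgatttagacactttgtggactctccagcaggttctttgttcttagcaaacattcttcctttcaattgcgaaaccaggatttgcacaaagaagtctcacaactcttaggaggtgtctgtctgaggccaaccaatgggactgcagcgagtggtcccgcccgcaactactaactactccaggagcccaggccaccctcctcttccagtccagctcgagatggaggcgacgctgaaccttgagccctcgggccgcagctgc

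The motif searched was the PPAR and RXR element, a pair of AGGTCA hexamers in the same direction with 1 base between them, on both strands. The exact element was in 0 of the 7 promoters that had a sequence, and in 0.0396% of 32851 promoters of the same length. With up to 2 mismatches it was in 1 of the 7, Plin2, at position -225 counted from the start as 0, on the opposite strand, and in 3.86% of all promoters. The last 6 letters of that stretch in Plin2 are an exact AGGTCA, read on the opposite strand, at position -218, so the matches overlap. A single exact AGGTCA was in 3 of the 7 promoters (Plin2, Cpt1a at -94 and Acadm at -249), and in 16.3% of all promoters. Neither Pdk4 nor Acot1 held an exact AGGTCA in this window. These matches describe letters only.

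The first comparison asks what low protein does to these genes when FGF21 is missing. Of the 8 genes, 4 were called higher in KO_LP than in KO_NP: Pdk4, Plin2, Acot1 and Angptl4, with log2 folds of 1.29 to 3.52, and 0 were called lower. Calls rest on edgeR's quasi-likelihood test with Benjamini-Hochberg adjustment across the whole table, at a threshold of 0.05. Among all 15165 genes, 7.17% were called, 3.59% higher and 3.58% lower. The median log2 fold of the 8 genes was 1.45, against 0.032 over all genes. All 4 calls were lost when KO_LP 6 was left out: 0 of 8 genes were then called, while 466 of all genes tested (3.04%) were, and the median over the 8 was 0.21. The count was also 0 without KO_NP 1, KO_NP 4 or KO_NP 5, 1 without KO_NP 3 or KO_NP 6, and 2 without KO_LP 4 or KO_NP 2, and it was 0 with only the 12 compared libraries in the fit. With only the compared libraries the 4 log2 folds stayed at 1.29 to 3.52, with larger SE. The share of mitochondrial counts, which was lower in every KO_LP library than in every KO_NP library, moves with this comparison, and its part in the calls was not tested. In bulk RNA, fewer cells of a type and less RNA per cell cannot be told apart, here and in what follows.

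**Figure D1:**
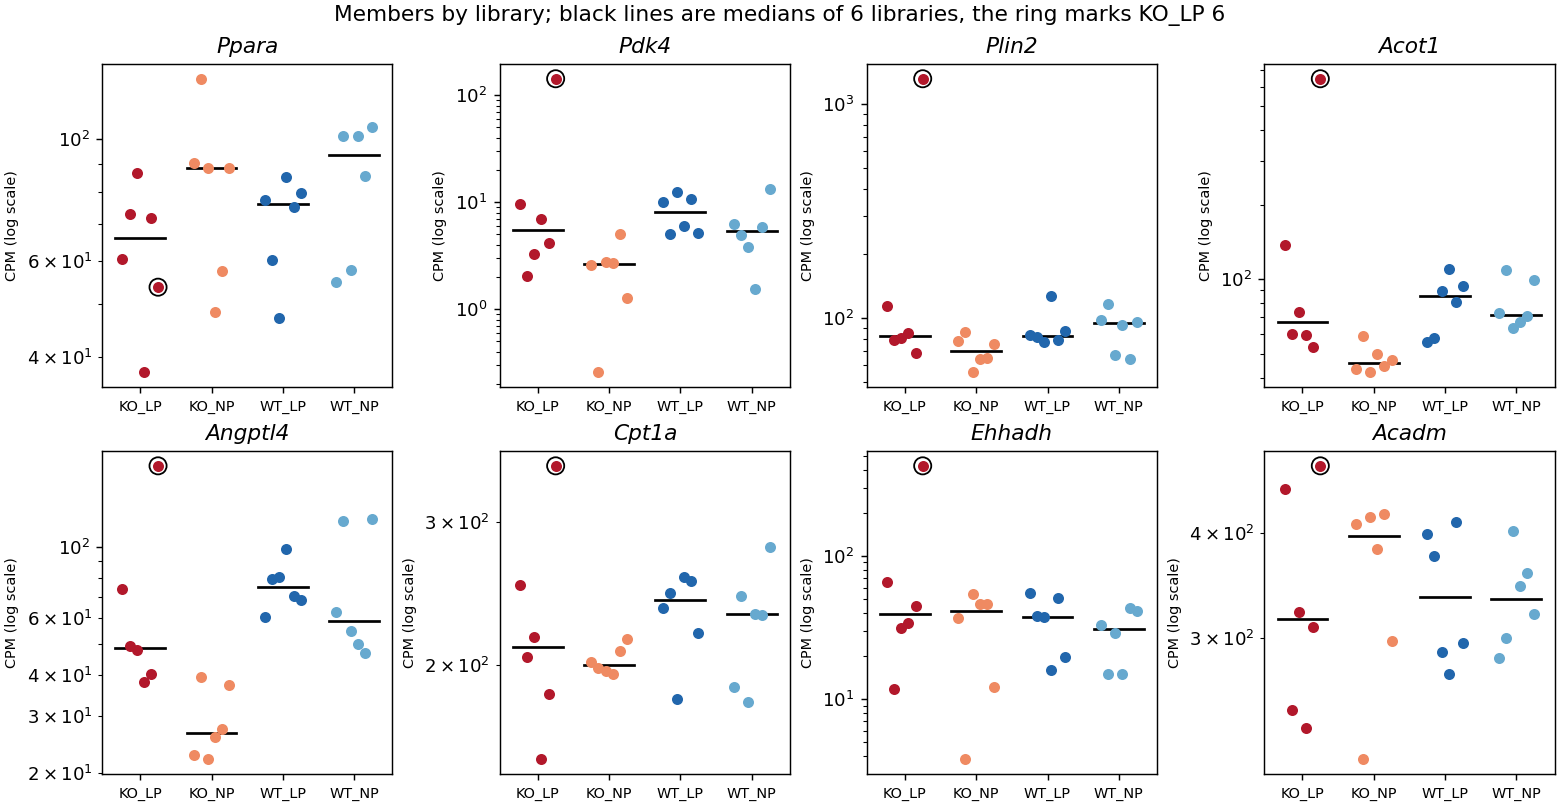
CPM of each of the 8 genes in the 24 libraries on a log axis, 1 panel per gene, with points for libraries, black lines for the median of 6 libraries and a ring around KO_LP 6. KO_LP 6 is the top point in every panel but Ppara, and for Pdk4, Plin2, Ehhadh and Acot1 it lies 4.71 to 10.8 times above the next library of any group.

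Ppara encodes the receptor (chromosome 15, 85734983 to 85802819, plus strand; coordinates here are GRCm38). Its CPM was 37.5 at the lowest, 66.0 at the median and 86.6 at the highest in KO_LP, against 48.4, 88.6 and 129 in KO_NP. In wild type it was 47.1, 76.2 and 85.4 in WT_LP, against 54.9, 93.5 and 105 in WT_NP. All 4 groups overlapped, and KO_LP 6, at 53.7 CPM, ranked 21 of 24. The log2 fold of LP over NP was -0.39 in KO (SE 0.227, adjusted p = 0.260, edgeR) and -0.25 in wild type (SE 0.225, adjusted p = 1.0). KO over WT was -0.15 on LP and -0.01 on NP. Ppara RNA was thus not called in any comparison, and 5 of 6 LP libraries lay below the NP mean in each genotype.

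Pdk4, on chromosome 6 (5483351 to 5496309, minus strand), encodes a kinase that switches off pyruvate dehydrogenase and so spares glucose in fasting. It is a low gene in these libraries. In KO_LP it was 2.03 CPM at the lowest, 5.51 at the median and 142 at the highest, against 0.258, 2.65 and 5.08 in KO_NP. The highest value is that of KO_LP 6, and the next highest KO_LP library had 9.57 CPM. The groups overlapped, with 5 of 6 KO_LP libraries above the KO_NP mean. The log2 fold was 3.52 (SE 0.911, adjusted p = 0.0308, edgeR). Without KO_LP 6 it was 1.06 (SE 0.529, adjusted p = 0.215). In wild type Pdk4 had 5.07, 8.04 and 12.4 CPM in WT_LP, against 1.53, 5.37 and 13.2 in WT_NP, and the log2 fold of 0.50 was not called (SE 0.823, adjusted p = 1.0).

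Plin2 (chromosome 4, 86648386 to 86670060, minus strand) encodes a coat protein of lipid droplets that is stable while droplets hold fat. It had 68.7 CPM at the lowest, 82.6 at the median and 1310.3 at the highest in KO_LP, against 55.8, 70.3 and 86.2 in KO_NP. KO_LP 6 was 16.3 times the median of the other KO_LP libraries, which ran to 113 CPM. Plin2 rose with a log2 fold of 2.03 (SE 0.583, adjusted p = 0.0414, edgeR), and without KO_LP 6 the log2 fold was 0.26 (SE 0.158, adjusted p = 0.304). In wild type it had 77.4, 82.4 and 127 CPM in WT_LP, against 64.4, 94.3 and 116 in WT_NP, with a log2 fold of 0.0010. In the last 500 bases of its transcripts, 2.38% of 50-base windows also occur in the gene Gm12551.

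Angptl4 (chromosome 17, 33773750 to 33781830, minus strand) encodes a secreted inhibitor of lipoprotein lipase that rises in fasting. Its CPM was 38.0 at the lowest, 48.6 at the median and 178 at the highest in KO_LP, against 22.0, 26.5 and 39.6 in KO_NP. All 6 KO_LP libraries exceeded the KO_NP mean of 29.1 ± 7.55 CPM (SD, n = 6), and the groups met only between 38.0 and 39.6 CPM. The log2 fold was 1.29 (SE 0.337, adjusted p = 0.0318, edgeR). Without KO_LP 6 the fold was 0.77 (SE 0.254, adjusted p = 0.0761), so the direction stayed and the call did not. In WT_LP it had 60.4, 74.8 and 98.3 CPM, against 47.0, 58.9 and 122 in WT_NP, with a log2 fold of 0.0035 (SE 0.326, adjusted p = 1.0).

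Acot1 (chromosome 12, 84009490 to 84018371, plus strand) encodes a cytosolic thioesterase that releases free fatty acids from acyl-CoA. It had 53.2 CPM at the lowest, 66.8 at the median and 645 at the highest in KO_LP, against 42.0, 45.8 and 58.8 in KO_NP. All 6 KO_LP libraries exceeded the KO_NP mean of 47.6 ± 6.15 CPM (SD, n = 6), with overlap between 53.2 and 58.8 CPM. Fully separate groups with LP higher were found for 0 of the 8 genes and 1.65% of all genes. Its log2 fold was 1.85 (SE 0.476, adjusted p = 0.0303, edgeR), and 0.68 without KO_LP 6 (SE 0.220, adjusted p = 0.0722). In WT_LP it had 55.8, 85.3 and 110.0 CPM, against 63.5, 71.8 and 108 in WT_NP. Its neighbour Acot2, a mitochondrial thioesterase, shares 7.21% of the 50-base windows at the 3' end of Acot1, so reads of the pair could be split. Acot2 also rose, at 211 ± 224 CPM in KO_LP against 83.0 ± 11.2 CPM in KO_NP (log2 fold 1.35, SE 0.372, adjusted p = 0.0374, edgeR), and 0.55 without KO_LP 6 (adjusted p = 0.0878). Of the other copies, Acot3 had a log2 fold of 0.32, Acot4 of -0.06 and Acot6 of -0.28, and none was called (adjusted p = 0.534, 0.744 and 0.0659, edgeR).

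The enzymes that burn fatty acids did not pass the test. Cpt1a (chromosome 19, 3322334 to 3385733, plus strand) encodes the carnitine transferase that controls entry of long fatty acids into mitochondria. Its CPM was 153 at the lowest, 211 at the median and 352 at the highest in KO_LP, against 195, 200.1 and 215 in KO_NP. The 6 KO_NP libraries lay close together (203 ± 7.81 CPM, SD, n = 6), and KO_LP spread on both sides of them (227 ± 69.2 CPM). The log2 fold was 0.16 (SE 0.142, adjusted p = 0.472, edgeR) and -0.0058 without KO_LP 6. WT_LP had 182, 240.2 and 257 CPM, against 180.1, 231 and 279 in WT_NP.

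Acadm (chromosome 3, 153922357 to 153944632, minus strand) encodes the dehydrogenase for medium-chain fatty acids in mitochondria. It had 235, 316 and 479.9 CPM as lowest, median and highest in KO_LP, against 216, 396 and 421 in KO_NP, with a log2 fold of -0.07 (SE 0.177, adjusted p = 0.830, edgeR). In WT_LP it had 272, 336 and 412 CPM, against 284, 333 and 402 in WT_NP. Its 4 groups covered nearly the same range. At the 3' end, 0.887% of its windows also occur in Gm5131.

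Ehhadh (chromosome 16, 21761287 to 21787807, minus strand) encodes the bifunctional enzyme of peroxisomal fatty acid oxidation. In KO_LP it had 11.8 CPM at the lowest, 39.3 at the median and 425 at the highest, against 3.80, 41.4 and 54.0 in KO_NP. The log2 fold of 1.62 was not called (SE 0.687, adjusted p = 0.130, edgeR), and it was 0.16 without KO_LP 6 (SE 0.509, adjusted p = 0.877). In WT_LP it had 15.9, 37.5 and 55.5 CPM, against 14.9, 30.8 and 43.1 in WT_NP. Ehhadh varied widely inside groups: KO_NP 2 had 3.80 and KO_NP 6 12.2 CPM, while the other 4 KO_NP libraries had 37.1 to 54.0. An snRNA gene, Gm24898, lies on the opposite strand within Ehhadh over 106 bases and has no row.

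The second comparison asks what low protein does when FGF21 is present. None of the 8 genes was called in wild type, nor was any gene of the 15165 (0% called, edgeR, with 580 genes and 0 of the 8 at an unadjusted p under 0.05). DESeq2 called 16 genes there and limma voom 6, with 0 of the 8 among them. Log2 folds of LP over NP were 0.50 for Pdk4, 0.31 for Ehhadh and -0.25 for Ppara, and the other 5 lay between 0.0010 and 0.042. The difference of the LP effects, KO minus wild type, was tested as an interaction. It was 3.02 for Pdk4 (SE 1.2, adjusted p = 0.249, edgeR), 2.03 for Plin2 (SE 0.803, adjusted p = 0.243), 1.83 for Acot1 (SE 0.658, adjusted p = 0.226) and 1.28 for Angptl4 (SE 0.467, adjusted p = 0.228). The background was 0% of 15165 genes called, 2430 had an unadjusted p under 0.05, and 4 of the 8 genes were among these. DESeq2 called 108 genes for this difference, with 0 of the 8 among them, and it gave no adjusted p for Pdk4 and Plin2 in any comparison. The diet response of the 8 genes was therefore not shown to differ between genotypes.

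**Figure D2:**
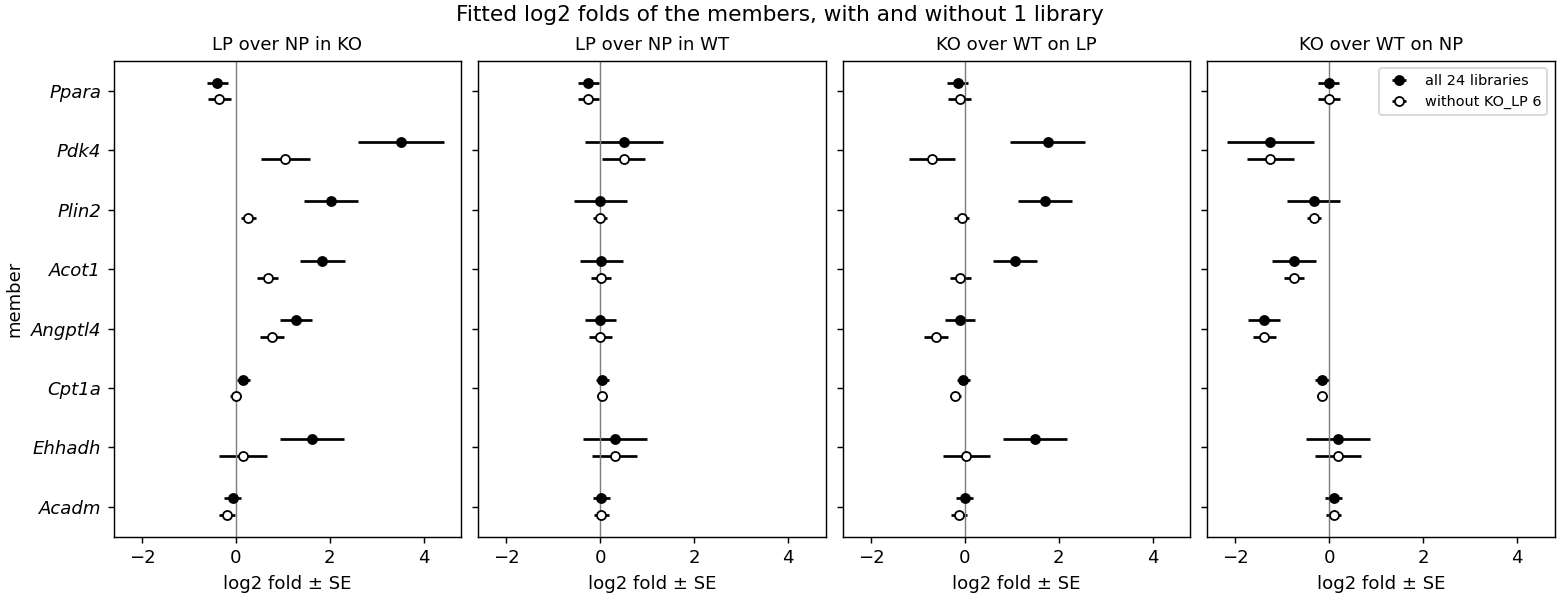
Fitted log2 folds with SE for each gene in 4 comparisons (panels), from all 24 libraries (filled) and without KO_LP 6 (open). In LP over NP in KO, the open points of Pdk4 (1.06) and Plin2 (0.26) lie far left of the filled ones (3.52 and 2.03), while in KO over WT on NP both points of each gene stay together.

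The third comparison sets KO against wild type on normal protein, where KO_LP 6 enters only through the shared estimate of spread. Angptl4 and Acot1 were lower in every KO_NP library than in any WT_NP library. Angptl4 had 22.0 to 39.6 CPM in KO_NP, against 47.0 to 122 in WT_NP, with means of 29.1 ± 7.55 and 76.1 ± 35.1 CPM (SD, n = 6 each). Its log2 fold was -1.38 (SE 0.337, adjusted p = 0.0645, edgeR), just short of the threshold. Without KO_LP 6 the fold was the same and the SE fell to 0.244, so that Angptl4 was called (adjusted p = 0.00476). DESeq2 and limma voom also called it (adjusted p = 0.00297 and 0.0132). In all, Angptl4 was called in 4 of 33 alternative settings. The remaining call came without WT_NP 1, KO_LP 4 and KO_LP 6 together (adjusted p = 0.00843, edgeR). It was not called with only the compared libraries in the fit, which also leaves out KO_LP 6. WT_NP 2 and WT_NP 6 had 119.9 and 121.9 CPM of Angptl4, against 47.0 to 62.9 in the other WT_NP libraries. Leaving out single libraries gave log2 folds of -1.495 to -1.203.

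Acot1 had 42.0 to 58.8 CPM in KO_NP, against 63.5 to 108 in WT_NP, with means of 47.6 ± 6.15 and 80.3 ± 18.8 CPM (SD, n = 6 each). The log2 fold was -0.75 (SE 0.467, adjusted p = 0.531, edgeR). It was -0.75 without KO_LP 6 (SE 0.210, adjusted p = 0.0800), and -0.74 with only the 12 compared libraries in the fit, where it was called (adjusted p = 0.0305). That was the only 1 of 33 alternative settings in which Acot1 was called here. In all, 0 of the 8 genes were called on normal protein, against 0.574% of all genes. Groups that did not overlap, with KO lower, were found for 2 of the 8 genes and for 0.791% of all genes. Every KO_NP library also lay below the WT_NP mean for Pdk4 (log2 fold -1.26), Plin2 (-0.33) and Cpt1a (-0.15), with overlap and without a call (adjusted p = 0.604, 0.845 and 0.687, edgeR). The share of all genes with this pattern was not counted, and the WT_NP mean of Pdk4 includes 13.2 CPM in WT_NP 6. Ppara, Ehhadh and Acadm had log2 folds of -0.01, 0.19 and 0.09.

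On low protein, 0 of the 8 genes were called between KO and wild type, against 2.93% of all genes. The log2 fold was 1.70 for Plin2 (SE 0.575, adjusted p = 0.100, edgeR), 1.76 for Pdk4 (adjusted p = 0.208), 1.49 for Ehhadh (adjusted p = 0.209) and 1.07 for Acot1 (adjusted p = 0.184). Without KO_LP 6 these were -0.068, -0.70, 0.033 and -0.094, so 3 of the 4 changed sign. Angptl4 had a log2 fold of -0.10 (adjusted p = 0.893), and -0.62 without KO_LP 6 (adjusted p = 0.174). For that gene, 5 of 6 KO_LP libraries lay below the WT_LP mean of 76.2 ± 13.1 CPM (SD, n = 6). Its order by group mean without KO_LP 6 was KO_NP (29.1 CPM), KO_LP (49.9), WT_NP (76.1) and WT_LP (76.2), where both wild type groups lay within their spread.

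Other genes of the programme were read from 9 lists, with the 8 genes left out of them. For LP over NP in KO, the list of ketone body genes held 1 call up and 2 down of 8. Over all genes 3.59% were called higher and 3.58% lower. Without KO_LP 6 the list held the same 1 call up and 0 down, where 3.04% of all genes were called. Oxct1 and Bdh1, which use ketone bodies, fell by 0.62 and 0.74 on the log2 scale (adjusted p = 0.0255 and 0.0333, edgeR), and were at 0.0534 and 0.0547 without KO_LP 6. The median log2 fold of the list was -0.17.

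Of 20 further PPAR alpha targets, 4 rose and 0 fell, against 3.59% and 3.58% of all genes, and 0 were called without KO_LP 6. Cyp4a14 and Cyp4a10, hydroxylases of fatty acid ends, had log2 folds of 3.65 and 1.74 (adjusted p = 0.0436 and 0.0314, edgeR), and 1.41 and 0.87 without KO_LP 6 (adjusted p = 0.272 and 0.0906). Txnip, which binds thioredoxin and limits glucose uptake, averaged 604 ± 151 CPM in KO_LP and 399.9 ± 34.6 CPM in KO_NP (SD, n = 6 each; log2 fold 0.60, adjusted p = 0.0236). Without KO_LP 6 it was 0.46 (adjusted p = 0.0511). The fourth, Ucp2, a mitochondrial carrier named after its values were seen, had a log2 fold of 1.17 (adjusted p = 0.0496) and 0.55 without KO_LP 6 (adjusted p = 0.176). The median of the list was 0.12, against -0.06 without KO_LP 6.

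In the fatty acid oxidation lists, calls were near or below the 7.17% over all genes. Of 21 mitochondrial genes 1 was called, Echs1, an enoyl-CoA hydratase, which fell by 0.36 on the log2 scale (adjusted p = 0.0301, edgeR) and was also called without KO_LP 6 (adjusted p = 0.0409). Of 17 peroxisomal genes 1 was called, the oxidase Acox3, which fell by 0.55 (adjusted p = 0.0387), and was not called without KO_LP 6 (adjusted p = 0.0684). Among 23 genes of fatty acid uptake, activation and thioesterases, Acot2 rose and Acbd5, a peroxisomal tether, fell by 0.27 (adjusted p = 0.0393 with and without KO_LP 6). None of 17 tested lipid droplet and lipolysis genes was called. Among 18 receptors and cofactors, Esrra and Ppargc1a, which drive mitochondrial genes, fell by 0.40 and 0.37 (adjusted p = 0.0374 and 0.0428), and were at 0.0698 and 0.0810 without KO_LP 6.

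Pdk4 acts on pyruvate dehydrogenase, and 4 of 16 genes of that complex and its partners fell while 0 rose, against 3.58% and 3.59% of all genes. Ldhb, a lactate dehydrogenase subunit, fell by 0.36, Pdp2, the phosphatase that opposes Pdk4, by 0.60 and Dlat, a subunit of the complex, by 0.36 (adjusted p = 0.0195, 0.0228 and 0.0236, edgeR). These 3 were called without KO_LP 6 too, at 0.0378, 0.0398 and 0.0374. The fourth, Pdk3, named after its values were seen, fell by 0.43 (adjusted p = 0.0393, and 0.0703 without KO_LP 6). The median of the list was -0.29. Of 26 other fasting, FOXO and glucocorticoid responsive genes, 1 was called higher, Lcn2, a lipocalin that also marks tubule injury (log2 fold 2.83, adjusted p = 0.0385, and 0.111 without KO_LP 6). Neither in wild type nor in the test of the interaction was any gene of the 9 lists called (0 of each).

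Genotypes were compared over the same lists. On low protein, where 2.93% of all genes were called, KO was lower than wild type for Oxct1 (log2 fold -0.72), Slc22a5, the carnitine transporter (-0.52), Slc27a2, a fatty acid transporter (-0.52), Lipa, the lysosomal acid lipase (-0.45), and Aqp7, a glycerol channel (-0.71), with adjusted p = 0.0139, 0.0420, 0.0478, 0.0370 and 0.0122 (edgeR). Without KO_LP 6 the call of Slc27a2 was lost (adjusted p = 0.0871), and the other 4 held (adjusted p = 0.0312, 0.0390, 0.0454 and 0.00932 for Oxct1, Slc22a5, Lipa and Aqp7). Ldhb was lower too (-0.32, adjusted p = 0.0297), and was not called without KO_LP 6 (adjusted p = 0.0597). Cyp4f14, named after its values were seen, had a log2 fold of -1.70 (adjusted p = 0.0208, and 0.0394 without KO_LP 6). On normal protein, where 0.574% of all genes were called, 2 list genes were, both lower in KO: Zbtb16, a glucocorticoid-induced transcription factor (-2.25, adjusted p = 0.00363), and G6pc, the catalytic subunit of glucose-6-phosphatase, named after its values were seen (-0.75, adjusted p = 0.0323). Both were also called without KO_LP 6 (adjusted p = 0.00372 and 0.0304). Txnip (-0.60, adjusted p = 0.0513) was not called there, and was called without KO_LP 6 (adjusted p = 0.0124).

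KO_LP 6 stood highest for much of the programme and not only for the 8 genes. It was the top library for 13 of 20 further PPAR alpha targets, 11 of 17 peroxisomal and 12 of 21 mitochondrial oxidation genes, and 10 of 17 droplet genes, against 13.9% of all genes. For receptors and cofactors it was 5 of 18, and for pyruvate dehydrogenase genes 4 of 16. Genes named after their values were seen show the size. Cyp4a14 had 5150.2 CPM in KO_LP 6, against at most 449 in the other 23 libraries. The lipid binding protein gene Fabp4 had 437 CPM, against at most 174. Plin4 and Hilpda, both of lipid droplets, had 10.1 and 37.0 CPM, against at most 2.57 and 13.0.

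**Figure D3:**
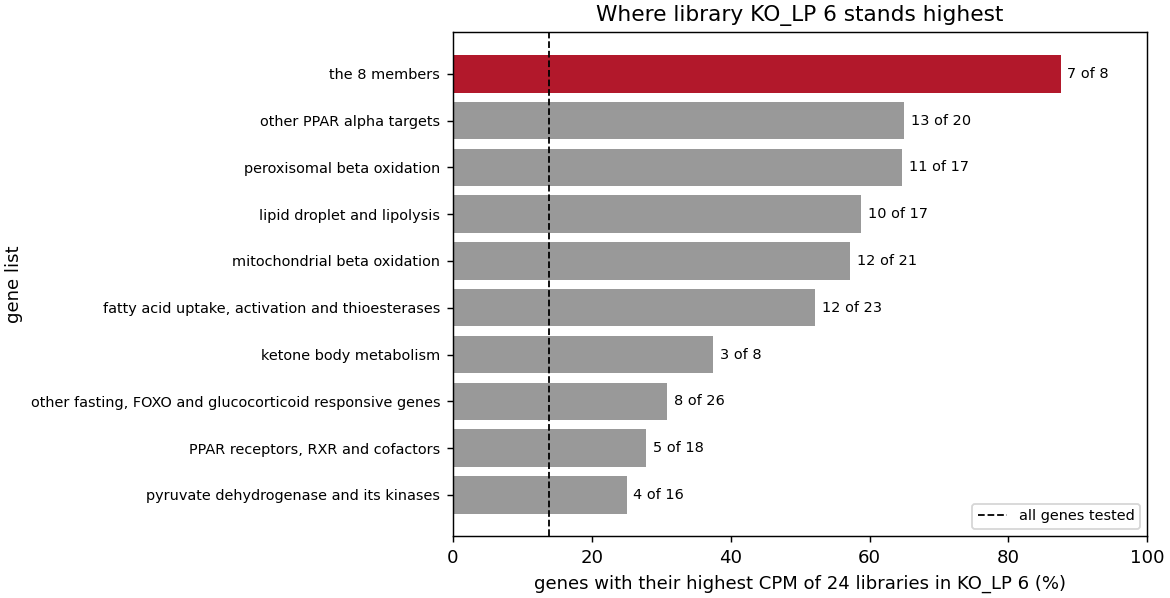
Share of each gene list, in percent of its tested genes, for which KO_LP 6 had the highest CPM of the 24 libraries (bars, with counts), and the share over all tested genes (dashed line, 13.9%). The 8 genes have the longest bar, 7 of 8, and pyruvate dehydrogenase genes the shortest, 4 of 16.

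Markers of other cells were read beside these values. Of 15 adipocyte markers 10 had a row, and their summed CPM was 405 to 1062 in KO_LP, 441 to 844 in KO_NP, 580.0 to 1073 in WT_LP and 421 to 930 in WT_NP. KO_LP 6 had the highest sum in its group, with 437 CPM of it from Fabp4. It was the highest of 24 for Fabp4, for Cidec (1.47 CPM, against at most 1.06), for Lipe (35.9, against at most 30.4) and for Pnpla2 (198, against at most 115), while Adipoq and Cfd had 0 counts there, as Adipoq had in 15 libraries and Cfd in 8. Of 9 adrenal cortex markers 3 had a row, and the sum in KO_LP 6, 94.4 CPM, lay within the 57.2 to 99.1 CPM of the other KO_LP libraries. Of 10 hepatocyte markers 7 had a row. Their sum was 1333 CPM in KO_LP 6, the highest of 24, of which 1043 came from Cyp2e1, which kidney also expresses. Serpina1a was at its highest of 24 there (59.5 CPM, against at most 59.3), Apoa1 had 4.33 CPM, against at most 1.56 in the other KO_LP libraries and 27.9 in any other library, and Alb had 3.63 CPM, against 3.33 to 5.68 in the other KO_LP libraries. The sum over 12 proximal tubule S1 and S2 markers was 5021 to 8027 CPM in KO_LP and 7967 to 10097 CPM in KO_NP, and KO_LP 6 was the lowest of 24. Single markers went both ways there: Slc34a1 had 917 CPM, against 1538 to 2451 in the other KO_LP libraries, and Slc22a6 968, against 479 to 778. The sum over 10 S3 markers was 13344 to 27594 CPM in KO_LP and 22786 to 37711 CPM in KO_NP. KO_LP 6 ranked 18 of 24, at 19097 CPM, of which 14878 came from Kap. Slc34a1, Slc22a6 and Kap were named after their values were seen. Macrophage and dendritic cell markers (15 of 15 with a row) summed to 586 to 2111 CPM in KO_LP and 437 to 749 CPM in KO_NP, with 780.2 CPM in KO_LP 6. T and NK cell markers (13 of 13) summed to 55.8 to 228 CPM in KO_LP and 32 to 78.1 CPM in KO_NP, and KO_LP 6 was the lowest of its group. B and plasma cell markers (10 of 10) summed to 1553 to 21445 CPM in KO_LP and 1600.1 to 3935 CPM in KO_NP. The sum was 3643 CPM in KO_LP 6. Their median log2 fold of LP over NP in KO was 1.72 over the 9 tested, with 0 called. In the same comparison, 4 of 15 macrophage and dendritic cell markers and 1 of 12 T and NK cell markers were called higher, and 0 lower. Among tubule markers, 2 of 12 for S1 and S2 were called lower and 1 of 10 for S3 higher. Of 6 tested hepatocyte markers 1 was called higher and 1 lower, and of 6 tested adipocyte markers 1 lower. Over all genes, 3.59% were called higher and 3.58% lower. The part of adipocyte, hepatocyte, tubule and immune markers in the values of the 8 genes was not tested.

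Across libraries the 8 genes fell into sets that moved together, here described with Spearman's rho of log2 CPM over 24 libraries, which share groups and depth. Angptl4 and Acot1 ran closest (rho 0.86, and 0.83 with group means subtracted). Plin2 followed both (0.73 with Acot1 and 0.72 with Angptl4), and Cpt1a less closely (0.63 with Angptl4). Ehhadh and Acadm formed another pair (0.76). Their rho with Plin2, Acot1 and Angptl4 was -0.22 to 0.046, and with Cpt1a it was 0.21 for Ehhadh and 0.32 for Acadm. Pdk4 lay between the sets, at 0.66 with Angptl4 and 0.58 with Ehhadh, and at 0.25 and 0.83 with group means subtracted. The receptor gene Ppara had rho of -0.42 to 0.35 with the other 7. Without KO_LP 6, Angptl4 with Acot1 was 0.85 and Ehhadh with Acadm 0.73.

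**Figure D4:**
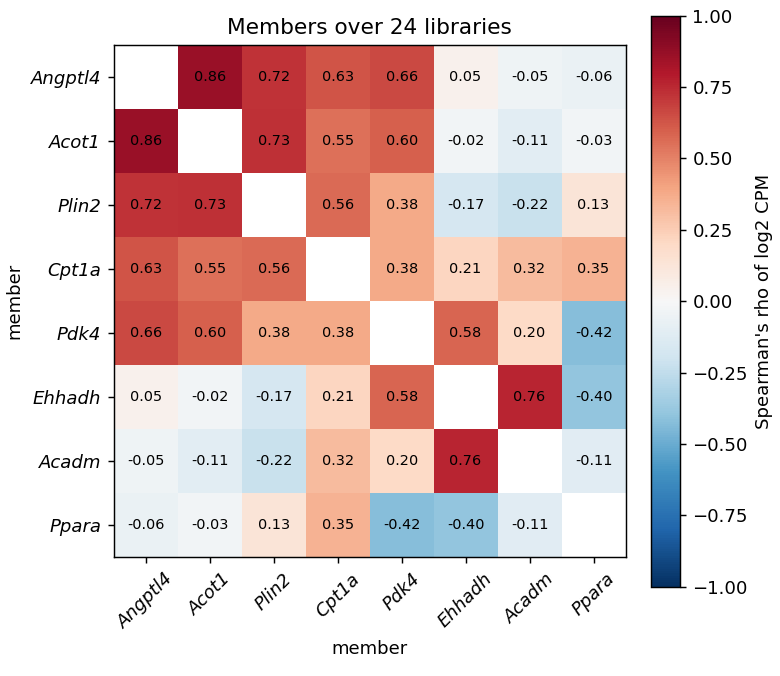
Spearman's rho between each pair of the 8 genes over 24 libraries, as a colour scale with the value printed. Angptl4, Acot1, Plin2 and Cpt1a form a block of 0.55 to 0.86 in the upper left, Ehhadh and Acadm a pair of 0.76, and Ppara stays between -0.42 and 0.35.

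By the same measure, 10051 other genes were searched for likeness over 24 libraries. They had a mean of at least 5 CPM, and provisional names such as Gm and Rik were left out. Among them, the most like the mean pattern of the 8 were Slc25a20, the mitochondrial carnitine carrier (rho 0.91), and Hsdl2, a peroxisomal dehydrogenase-like protein (0.89). Next were Lgals4, a galectin (0.86), Ednrb, the endothelin B receptor (0.85), and Slc16a13, a monocarboxylate transporter (0.84). Slc25a20 had 66.1 ± 26.2 CPM in KO_LP, against 46.4 ± 2.03 CPM in KO_NP (SD, n = 6 each), with a log2 fold of 0.51 that was not called (adjusted p = 0.0554, edgeR). Closest to Acot1 were Cldn15 (0.94), Acot2 (0.89) and Klf11 (0.84), and closest to Angptl4 were Slc25a20 (0.90), Hsdl2 (0.88) and Lgals4 (0.87). For Plin2 they were Rab11b (0.83), Cyp4a10 (0.82) and Dtx2 (0.79), and for Cpt1a Eci2 (0.91), Slc25a34 (0.88) and Elmod3 (0.84). For Pdk4 they were Rusc2 (0.81), Klf10 (0.80) and Txnip (0.80). Ehhadh ran with Yipf4 (0.92), Cops7a (0.91) and Exoc6 (0.90), Acadm with Chuk, Aldh9a1 and Acad11 (0.92 each), and Ppara with Sptbn1 (0.85), Eif2b4 and Gcn1 (0.81 each).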

How the data were processed

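Kidney cortex RNA was sequenced as 24 Lexogen QuantSeq libraries with forward reads of 50 bases, per the labels. The authors deposited raw counts of reads for each gene. A second deposited table holds a normalized signal, which equals those counts over 1 size factor per library. GRCm38 and DESeq2 1.22.2 are named per the submitters' processing notes; the sources used here give no aligner, counter or strand setting. The tables hold 16921 genes, with a lowest mean count of 3, so low genes had been removed before deposit. The labels give no batch.

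Raw counts were fitted in edgeR 4.0.16 (R 4.3.3): filterByExpr on the 4 groups (15165 genes tested, 1756 below the filter), TMM factors, and a quasi-likelihood model of the 4 groups with robust dispersion. P-values are two-sided, adjusted by Benjamini and Hochberg's method across the 15165 genes, and the fit was tested on simulated data. The biological coefficient of variation was 19.6%. The chi-square per degree of freedom between replicates was 5.19 to 59.8, above counting error, so each library counted as 1 sample. Alternatives were DESeq2 size factors, 2 other low count filters, only the compared libraries, limma 3.58.1 (voom with quality weights, and log2 of normalized values plus 1), DESeq2 1.42.0, 1 surrogate variable from sva 3.50.0, and leaving out libraries. Promoter sequences and motif matches come from RefSeq's table for GRCm38.p6, which matched 7 of the 8 genes (not Angptl4), and gene positions from GENCODE on GRCm38.

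The 8 genes, the lists and the alternatives were chosen with earlier results of these data known. The text names the 8 genes, from each list up to 3 genes with the smallest p for LP versus NP in KO and 1 for each other comparison, the thioesterases next to Acot1, and by Spearman's rho the 5 genes most like the mean of the 8 and the 3 most like each. Some genes that this rule picked are not reported here, and counts over a list keep all its genes. Genes outside this rule are marked where they appear.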

Additional observations from a re-analysis of the deposited data

Results flagged for a closer look

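In 32 sets of 6 libraries (8 genes in 4 groups), 6 had a highest library whose gap to the next was too large a share of the group's whole range by Dixon's test. For independent sets of normally distributed values, chance alone flags about 1 in 20. These sets share libraries and genes that vary together, and CPM was not put on a log scale, so that rate need not hold here.

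In 5 of them the library was KO_LP 6 within KO_LP. It had 142 CPM of Pdk4 (gap of 0.946 of the range), 1310.3 CPM of Plin2 (0.964), 645 CPM of Acot1 (0.858), 178 CPM of Angptl4 (0.744) and 425 CPM of Ehhadh (0.871). The sixth was WT_LP 4 within WT_LP, with 127 CPM of Plin2 (0.804), where the other 5 libraries had 77.4 to 87.1 CPM.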

How the results depend on the processing

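No paired analysis was possible because the replicate numbers only name libraries in accession order and pair no mice across groups.

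Of the 8 genes, 4 were called for LP versus NP in KO. This was 0 with only the compared libraries, 0 with 1 surrogate variable, 0 without WT_NP 1, KO_LP 4 and KO_LP 6 together (the 3 libraries with the most genes at their highest CPM), 1 with voom, 1 with limma on normalized values (Angptl4 in both) and 2 with DESeq2 (Acot1 and Angptl4). Folds did not shrink in the first 2 of these fits: they were 3.52, 2.03, 1.85 and 1.29 for Pdk4, Plin2, Acot1 and Angptl4 with only the compared libraries (adjusted p = 0.0797, 0.118, 0.0843 and 0.0542, edgeR), and 3.73, 2.20, 2.01 and 1.41 with 1 surrogate variable (adjusted p = 0.182, 0.217, 0.171 and 0.181, edgeR). DESeq2 gave no adjusted p for Pdk4 and Plin2 here (log2 folds 3.51 and 2.02) or in any other comparison, so neither could be called. Leaving out 1 library gave a count of 0 to 4. It was 0 without KO_LP 6, KO_NP 1, KO_NP 4 or KO_NP 5, and 1 without KO_NP 3 or KO_NP 6. It was 2 without KO_LP 4 or KO_NP 2. For KO versus WT on NP the count was 0, but 1 with only the compared libraries (Acot1), and 1 with voom, with DESeq2 and without the 3 libraries (Angptl4 each time), and 0 to 1 over single libraries. In the other 3 comparisons the count stayed at 0 under every alternative run.

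Over all genes, LP versus NP in KO called 1087 genes, but 1693 with voom, 1855 with DESeq2, 4 with 1 surrogate variable and 36 without the 3 libraries, and 122 to 2006 over single libraries. LP versus NP in WT called 0, but 6 with voom and 16 with DESeq2 (0 to 2 over single libraries). The difference of the LP effects called 0, but 108 with DESeq2 (0 to 0 over single libraries). KO versus WT on LP called 445, but 161 with only the compared libraries, 877 with voom, 889 with DESeq2, 290.0 with 1 surrogate variable and 200.0 without the 3 libraries (180.0 to 733 over single libraries). KO versus WT on NP called 87, but 140.0 with voom and 232 with DESeq2 (52 to 151 over single libraries). The cause was not tested.

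Log2 folds that changed sign were mostly near 0. With voom these were Acadm in WT (-0.012), the difference for Ppara (0.048) and Cpt1a (-0.017), and KO versus WT on LP for Pdk4 (-0.76) and Acot1 (-0.017). With 1 surrogate variable they were Acadm in KO (0.20), Plin2, Angptl4 and Acadm in WT (-0.032, -0.013 and -0.014), the difference for Ppara (0.0018) and Acadm (0.21), Cpt1a and Acadm for KO versus WT on LP (0.096 and 0.18), and Ehhadh and Acadm on NP (-0.027 and -0.032). Without the 3 libraries they were Acot1, Angptl4, Cpt1a and Acadm in WT (-0.0061, -0.044, -0.0041 and -0.019), the difference for Ppara (0.15) and Ehhadh (-0.16), and KO versus WT on LP for Ppara (0.043), Pdk4 (-0.86), Plin2 (-0.068) and Acot1 (-0.016). Acadm for KO versus WT on LP was 0.011 with at least 5 CPM in 6 libraries, Ppara on NP was 0.0023 with only the compared libraries, and Ehhadh on NP was -0.14 with limma on normalized values. Over single libraries the sign changed in 17 of the 40 folds of the 8 genes. In KO these ran from -0.19 to 0.017 for Acadm and -0.0058 to 0.25 for Cpt1a. In WT they were -0.040 to 0.082 for Acadm, -0.087 to 0.12 for Acot1, -0.10 to 0.19 for Angptl4, -0.015 to 0.11 for Cpt1a and -0.13 to 0.092 for Plin2. For KO versus WT on LP they were -0.13 to 0.086 for Acadm, -0.094 to 1.26 for Acot1, -0.62 to 0.029 for Angptl4, -0.20 to 0.059 for Cpt1a, -0.70 to 2.01 for Pdk4 and -0.068 to 1.90 for Plin2, and on NP -0.18 to 0.11 for Ppara. The difference ran from -0.048 to 0.21 for Cpt1a, -0.15 to 1.54 for Ehhadh and -0.26 to 0.024 for Ppara.

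Depth limits Pdk4 most, with as few as 4 counts in KO_NP 2.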

Other observations

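KO_LP 6 was also the highest of 24 libraries for several list genes of stress, transport and fuel use, named here after their values were seen. Ddit4, which dampens mTORC1 signalling in stress and fasting, had 85.5 CPM, against at most 32.5 in the other 23 libraries. The metallothionein genes Mt1 and Mt2 had 952 and 810.3 CPM, against at most 602 and 484. Slc16a1, a carrier of lactate and ketone bodies, had 53.7 CPM, against at most 21.5, and Fabp1, the liver-type fatty acid binding protein, had 29.8 CPM, against at most 10.3. Pdk1, another kinase of pyruvate dehydrogenase, had 56.8 CPM, against at most 31.4. The proximal tubule S1 and S2 marker sum of this library was the lowest of 24 (5021 CPM), while its S3 marker sum ranked 18 of 24 (19097 CPM). The part of these sums in the values above was not tested.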
